A study of Mus musculus with 4 samples.

Results

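Platelet-derived growth factor (PDGF) receptors and ligands were followed in nuclear RNA of mouse fibroblasts in which the transcription factor CDX2 was switched on. The genes were chosen by symbol: the 3 receptor genes Pdgfra, Pdgfrb and Pdgfrl and the 4 ligand genes Pdgfa, Pdgfb, Pdgfc and Pdgfd. They take up 15 of the 40739 transcript rows of the authors' deposited table and 7 of its 25177 gene symbols. The fold changes of Pdgfra and Pdgfrb in these data were known when the family was picked, so the members' response to doxycycline is given as a description.

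NIH-3T3 cells are an established line of mouse embryonic fibroblasts. All cells carried 3 stable transgenes: H2B-mCherry, the rtTA3G transactivator and CDX2 under the doxycycline-dependent TRE3G promoter. The doxycycline group (2 libraries) received 500 ng/ml doxycycline for 6 h, and the group without doxycycline (2 libraries) received solvent alone for 6 h, with 500000 cells per treatment. One protocol of the labels gives the dose per millilitre and another gives the same figure per microlitre. The sources used here do not say whether the line is 1 clone or whether replicates were separate cultures, so errors may reflect technical spread alone. The table gives 1 comparison per transcript and no value per library was analysed here, so levels below are group means in CPM (counts scaled to library size), worked out from the mean log2 CPM and the log2 fold change.

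PDGFs are dimeric growth factors that drive the growth and migration of mesenchymal cells. They act through receptor tyrosine kinases that dimerise when a ligand binds and then phosphorylate one another, which recruits adaptors, phosphatidylinositol 3-kinase, phospholipase C-gamma and the Ras pathway. PDGF-A activates the alpha receptor, PDGF-B binds both receptors, PDGF-C acts mainly through the alpha receptor and PDGF-D through the beta receptor. NIH-3T3 and related fibroblasts are classic cells for the study of PDGF responses.

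Cdx2, the induced gene, stood at 612 CPM with doxycycline and 4.96 CPM without in the authors' deposited table, a log2 difference of 6.95 ± 0.091 (± standard error). Of 14 fibroblast markers, 10 reached the level for testing (a geometric mean of at least 10 counts per library), and their list summed to 6299 CPM with doxycycline and 7454 CPM without in the authors' deposited table. In that list 6 of the 10 tested markers fell and 0 rose (60.0% called, beside 24.7% of all genes tested, 13.4% lower, at the authors' adjusted p under 0.05), led by the mesenchymal factor Prrx1 (log2 fold change -1.02 ± 0.065), and Lum and Fap are listed without reads. Pericyte and smooth muscle markers summed to 179 CPM with doxycycline and 230 CPM without in the authors' deposited table, nearly all of it Cspg4 and Acta2, with 1 of 4 tested genes lower, 0 higher and Kcnj8 without reads. Markers of oligodendrocyte progenitors, endothelium, blood and epithelium each summed to under 5 CPM in both groups, and Olig1, Olig2, Adgre1, Cd3e, Krt18 and Cldn4 are listed without reads in the authors' deposited table. In the endothelial, blood and epithelial lists 1 gene each was tested: Cdh1 fell (-1.62 ± 0.22), and Cdh5 and Cd68 were not called, in the authors' deposited table. Krt19, an epithelial marker under the level for testing (a mean of 1.18 counts), went the other way from Cdh1. Its level was 0.128 CPM with doxycycline and 0.0105 CPM without (authors' adjusted p 2.07e-07). The part of these marker shifts in the values below was not tested, and fewer cells of a state and less RNA per cell cannot be told apart in pooled cells.

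The alpha receptor gene rose and the beta receptor gene fell, so that their order was exchanged. Per kilobase of exon, Pdgfra stood at 9.07 CPM with doxycycline and 4.81 CPM without, and Pdgfrb at 3.89 CPM with doxycycline and 6.84 CPM without, from the authors' deposited table. The ratio of Pdgfra to Pdgfrb was thus 2.33 with doxycycline and 0.703 without on that per-kilobase scale. The sum of both receptors was closer between groups, at 13.0 CPM per kilobase with doxycycline and 11.6 without.

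Pdgfra encodes the alpha receptor, a marker of fibroblasts and mesenchymal progenitors (NM_001083316, mm10 chromosome 5, 75156166 to 75198206, plus strand). Its level was 59.2 CPM with doxycycline and 31.4 CPM without, which is a fold of 1.89 (95% interval 1.71 to 2.07) in the authors' deposited table. The log2 fold change of 0.92 ± 0.070 (± standard error) ranks 96th from the top among the 12355 genes tested.

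Pdgfrb encodes the beta receptor, known from pericytes, smooth muscle and fibroblasts (NM_008809, chromosome 18, 61045150 to 61085067, plus strand). It stood at 20.9 CPM with doxycycline and 36.7 CPM without in the authors' deposited table. Its log2 fold change was -0.81 ± 0.073, with a 95% interval of -0.96 to -0.67, and ranks 224th from the bottom of the genes tested in the authors' deposited table.

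Pdgfrl encodes a receptor-like protein with immunoglobulin domains and no kinase (NM_026840, chromosome 8, 40926233 to 40990770, plus strand). It was close to equal in the groups, at 10.3 CPM with doxycycline and 9.59 CPM without in the authors' deposited table. The log2 fold change of 0.10 ± 0.090 has a 95% interval of -0.071 to 0.28 in the authors' deposited table, so a rise of up to 1.21-fold lies inside it.

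**Figure D1:**
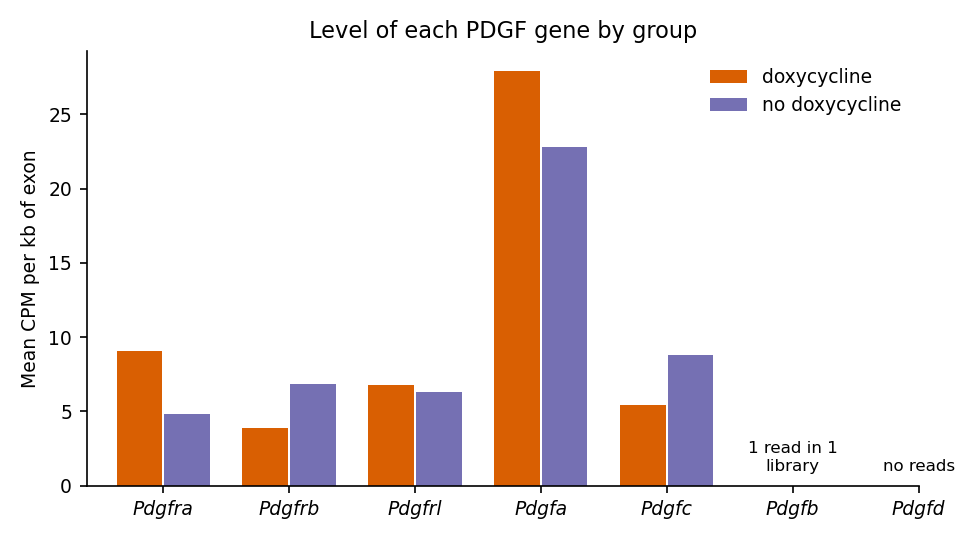
Group mean level of the 7 PDGF genes in CPM per kilobase of exon (y axis, linear from 0), doxycycline left and no doxycycline right for each gene; the table gives no spread per library, so the bars carry no error bar. Pdgfra is higher with doxycycline (9.07 and 4.81), Pdgfrb lower (3.89 and 6.84), and Pdgfa is the most abundant member in both groups (27.9 and 22.8).

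Among the ligands, Pdgfa and Pdgfc were expressed, Pdgfa higher and Pdgfc lower with doxycycline, while Pdgfb and Pdgfd had next to no reads. Pdgfa encodes the A chain, which binds the alpha receptor alone (NM_001363271, chromosome 5, 138976014 to 138994944, minus strand). It stood at 56.4 CPM with doxycycline and 46.2 CPM without, and rose by a log2 fold change of 0.29 ± 0.068, or 1.22-fold, in the authors' deposited table. This is the smallest of the called member changes, and the call is lost when errors are multiplied by 2.08, the robust spread of t over all genes tested (adjusted p 0.355). The calls of Pdgfra, Pdgfrb and Pdgfc hold with these widened errors.

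Pdgfc encodes a ligand that is secreted with a CUB domain and becomes active once a protease such as tissue plasminogen activator removes it (NM_001357746, chromosome 3, 81036416 to 81214040, plus strand). Its level was 19.4 CPM with doxycycline and 31.4 CPM without in the authors' deposited table. Its log2 fold change of -0.70 ± 0.075 ranks 320th from the bottom of the genes tested, and its 95% interval runs from -0.84 to -0.55 in the authors' deposited table. The ratio of Pdgfa to Pdgfc per kilobase was 5.13 with doxycycline and 2.59 without.

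Pdgfb, which encodes the B chain that binds both receptors (NM_011057, chromosome 15, 79995865 to 80014977), lies 0.40 above the lowest mean log2 CPM of the authors' deposited table, the step that 1 read in 1 of the 4 libraries gives. Pdgfd, whose product acts through the beta receptor (NM_027924, chromosome 9, 6168486 to 6378845), is at that lowest value, shared by 9211 rows, and so has no reads in any library. A count of 0 over the 4 libraries allows up to 0.0164 CPM (3 counts, counting error only). No fold change is given for these members.

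By the authors' adjusted p under 0.05, 2 of the 5 members tested rose (Pdgfra and Pdgfa) and 2 fell (Pdgfrb and Pdgfc), where 24.7% of all 12355 genes tested were called, 11.3% higher and 13.4% lower, in the authors' deposited table. Among the 5067 genes whose mean level lies between those of the lowest and the highest tested member, 26.6% were called, 13.7% higher and 12.8% lower. Since the choice of the family used this comparison, nothing is read from the members' count. Called changes of at least 1.5-fold made up 5.65% of the genes tested, and Pdgfra, Pdgfrb and Pdgfc were among them in the authors' deposited table.

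**Figure D2:**
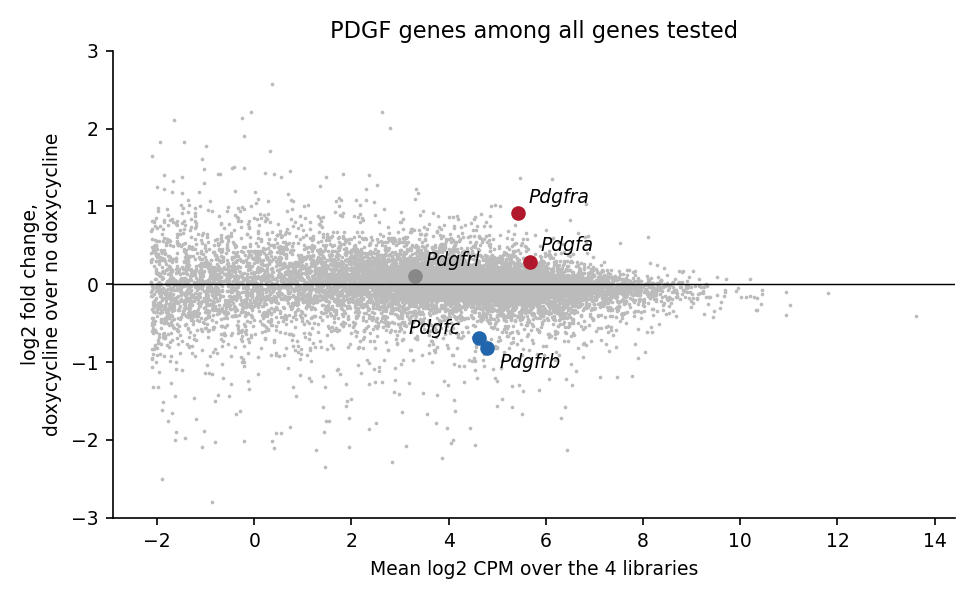
Log2 fold change of doxycycline over no doxycycline (y axis) against mean log2 CPM over the 4 libraries (x axis) for the genes tested, grey, with the 5 tested PDGF genes in red (called higher), blue (called lower) or dark grey (not called); Cdx2, at 6.95, lies above the axis. Pdgfra (0.92), Pdgfrb (-0.81) and Pdgfc (-0.70) lie at the edges of the cloud at their level, and Pdgfrl (0.10) lies inside it.

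Ordered by level per kilobase with doxycycline, the expressed members ran Pdgfa (27.9 CPM), Pdgfra (9.07), Pdgfrl (6.77), Pdgfc (5.44) and Pdgfrb (3.89). Without doxycycline the order was Pdgfa (22.8 CPM per kilobase), Pdgfc (8.81), Pdgfrb (6.84), Pdgfrl (6.30) and Pdgfra (4.81). Pdgfra was thus the lowest of the 5 expressed members without doxycycline and second to Pdgfa with it. Whether neighbours in these orders differ beyond the spread between libraries cannot be judged from group means.

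Several members have more than 1 transcript row, and rows of a gene share most of their exons and reads. The 5 rows of Pdgfra differed by 0.083 between the lowest (0.84) and the highest (0.92) log2 fold change in the authors' deposited table. The 3 rows of Pdgfa ran from 0.28 to 0.29, and the rows of Pdgfrb and of Pdgfc agreed within 0.00055 and 0.00023 on the log2 scale.

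Within Pdgfra, the mean level per kilobase was 8.43 CPM over the shortest row (NR_144636, 75152251 to 75175150, 1645 bases of exon). It was 6.55 CPM over the full-length row NM_011058 (6550 bases) and 6.14 CPM over NM_001347718 (3500 bases), which ends at 75184131. The log2 fold changes of these rows were 0.91 ± 0.087, 0.92 ± 0.070 and 0.86 ± 0.078 in the authors' deposited table. Their 95% intervals overlap, but the rows share reads, so this cannot show whether the transcripts responded alike.

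Pdgfra starts at 3 positions in these rows, and 2 pairs of rows have the same exon length apart from the first exon (6343 bases in one pair and 3293 in the other, with first exon ends taken from GENCODE M21). NM_011058, which starts at 75152251, held 0.072 CPM less than NM_001083316, which starts 3915 bases further on, with doxycycline and 0.19 CPM less without. NM_001347718, with the same first exon as NM_011058, held 0.17 CPM more with doxycycline than NM_001347719, which starts 685 bases further on, and 0.087 CPM less without. These differences are under 1% of each row's level, so the rows do not tell which of the starts gained reads.

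**Figure D3:**
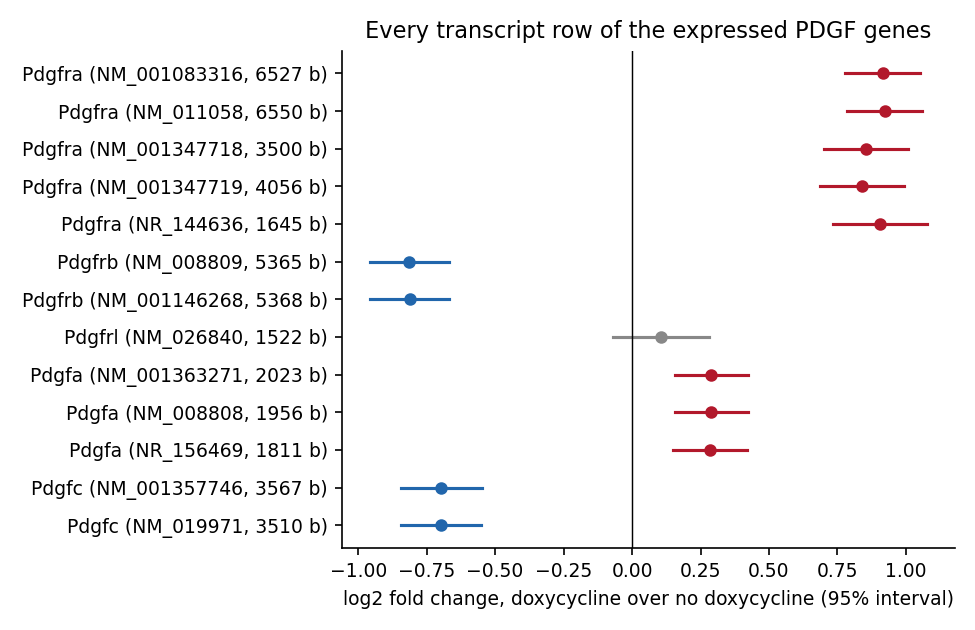
Log2 fold change of doxycycline over no doxycycline (x axis, points) with 95% intervals (lines) for every row of the 5 expressed PDGF genes, labelled with transcript and exon length in bases. All 5 Pdgfra rows lie between 0.84 and 0.92, both Pdgfrb rows near -0.81, both Pdgfc rows near -0.70, and the interval of Pdgfrl crosses 0.

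A microRNA row, Mir7025 (chromosome 5, 75176831 to 75176904), lies inside Pdgfra and spans the end of an exon and the intron after it. It held a mean of 8.37 counts, under the level for testing, and its log2 fold change was 1.31 ± 0.42 in the authors' deposited table. The 95% interval, 0.49 to 2.13, includes the 0.92 of Pdgfra. Both lie on the same strand, so reads over the shared exon end belong to either. In GENCODE M21, Pdgfc and Pdgfb each overlap an antisense gene, and since no source used here states whether the authors counted by strand, the Pdgfc value may hold antisense reads.

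CDX2 is known to bind AT-rich sites with a TTTAT core, so the 250 bases before the start of members in the RefSeq promoter table (GRCm38.p6) were searched for TTTATT and TTTATG on both strands. The table has 5 windows for 4 members, and 1 of them held a match, TTTATT in front of Pdgfra. The core followed by A (TTTATA) was not searched. It occurs on the other strand of the window of Pdgfd, which had no reads, so the matches depend on the last letter chosen. For each of the 3 called members with an entry 1 window is shown, since these are the genes whose levels changed. Sequences run in the direction of transcription, with the match in capitals.
Pdgfra (chr5:75152001-75152250, plus strand): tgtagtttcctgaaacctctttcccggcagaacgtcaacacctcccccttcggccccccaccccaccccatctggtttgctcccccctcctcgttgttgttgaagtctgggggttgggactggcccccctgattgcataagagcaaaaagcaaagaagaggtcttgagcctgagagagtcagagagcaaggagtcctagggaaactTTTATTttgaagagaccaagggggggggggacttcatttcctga
Pdgfc (chr3:81036166-81036415, plus strand): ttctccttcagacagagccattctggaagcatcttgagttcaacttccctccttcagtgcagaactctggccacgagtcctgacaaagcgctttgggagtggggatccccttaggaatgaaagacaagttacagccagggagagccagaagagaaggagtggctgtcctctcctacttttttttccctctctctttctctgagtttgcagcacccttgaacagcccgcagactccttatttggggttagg
Pdgfa (chr5:138994945-138995194, minus strand): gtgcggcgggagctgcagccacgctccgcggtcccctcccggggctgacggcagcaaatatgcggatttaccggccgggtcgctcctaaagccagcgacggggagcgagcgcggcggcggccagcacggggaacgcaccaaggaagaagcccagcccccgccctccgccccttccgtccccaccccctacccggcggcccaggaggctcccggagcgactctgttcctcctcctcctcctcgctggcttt
The match in front of Pdgfra begins 44 bases before the RefSeq start, which is also the start of the row NM_011058. The row that stood for Pdgfra in the levels above, NM_001083316, starts 3915 bases further on. No window directly before that start, or before that of NM_001347719, was searched. Of 32851 promoter windows of the same length, 25.5% held TTTATT or TTTATG on either strand and 18.1% held TTTATT, whose reverse complement AATAAA is also the letters of the polyadenylation signal. The match is thus a common one and describes letters only. The Pdgfa window shown is richer in G and C (72.4%) than those of Pdgfra (54.4%) and Pdgfc (50.8%). Another Pdgfa window, before the start of the row NR_156469, has 66.4% G and C, held no match and is not shown.

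The PDGF receptors lie beside related receptor genes, Pdgfra beside Kit and Pdgfrb beside Csf1r, remnants of an ancient duplication. Kit, which encodes the stem cell factor receptor and starts 419 kb downstream of Pdgfra, held 1 read in 1 library (a mean of 0.16 counts) in the authors' deposited table. Csf1r, the receptor of colony stimulating factor 1, starts 60.4 kb downstream of Pdgfrb and held a mean of 1.93 counts. Cdx1, a paralogue of the induced factor, starts 8951 bases upstream of Pdgfrb on the other strand and also held 1 read in 1 library in the authors' deposited table.

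Genes that start within 500 kb of a member numbered 95, of which 55 were tested, and 8 rose and 4 fell (21.8%, beside 24.7% of all genes tested) in the authors' deposited table. Next to Pdgfra, Chic2, whose start lies 112 kb upstream, rose by 0.34 ± 0.079 on the log2 scale and Lnx1 was not called. Next to Pdgfrb, the sulphate transporter gene Slc26a2 rose (0.47 ± 0.080) and the coactivator gene Ppargc1b fell (-0.85 ± 0.096), 166 kb and 355 kb downstream, while 7 others tested were not called in the authors' deposited table.

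Around Pdgfrl, 1 of 9 tested neighbours was called, the cationic amino acid transporter gene Slc7a2 (-0.46 ± 0.080), 63.9 kb upstream, in the authors' deposited table. Around Pdgfa, Cox19 (0.40 ± 0.091), a cytochrome oxidase assembly gene, and the zinc finger gene Zfp68 (0.26 ± 0.076) rose and 3110082I17Rik (-0.27 ± 0.079) fell among 12. Around the nearly silent Pdgfb, Cacna1i (1.83 ± 0.35, a mean of 11.4 counts), Mgat3 (0.51 ± 0.097), Cby1 (0.30 ± 0.097) and Kdelr3 (0.24 ± 0.072) rose and Josd1 (-0.27 ± 0.068) fell among 23 in the authors' deposited table. Kdelr3 overlaps Ddx17 and 3110082I17Rik overlaps 3 genes on the other strand with reads, so these values may share reads. Pdgfc and Pdgfd had 0 tested neighbours within that distance.

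**Figure D4:**
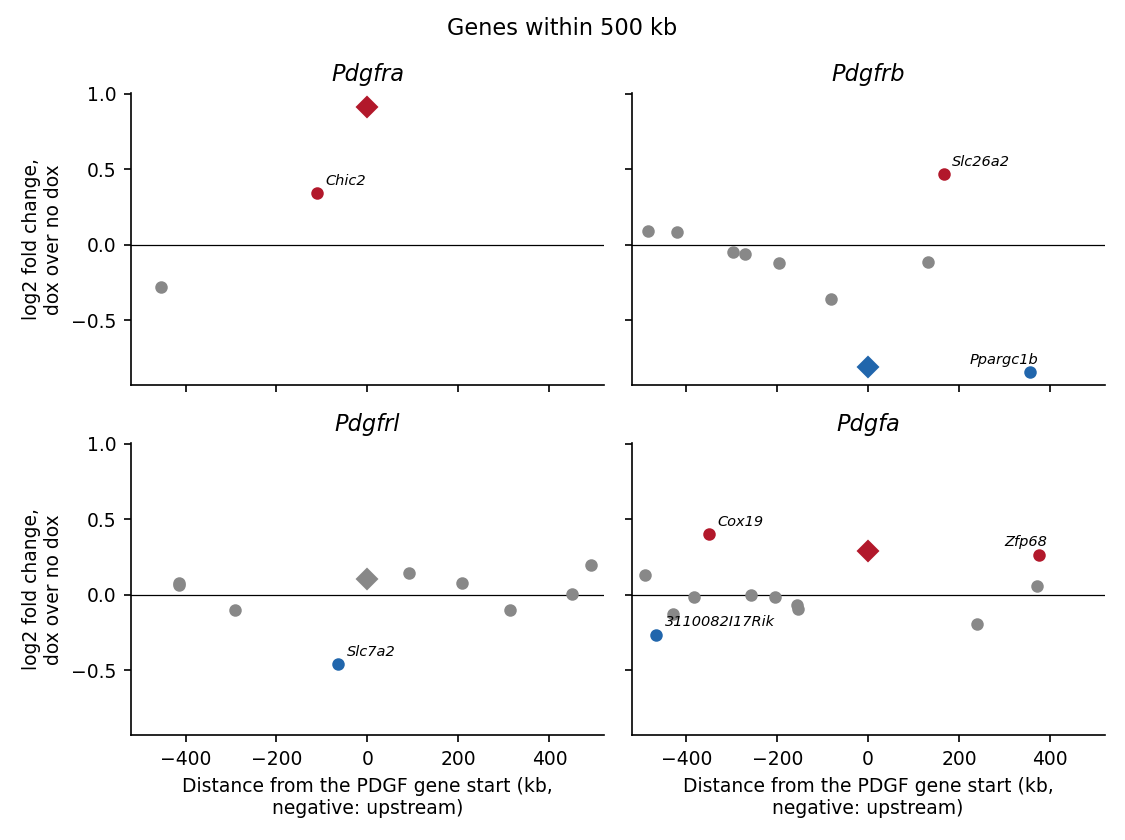
Log2 fold change of doxycycline over no doxycycline (y axis) of tested genes by the distance of their start from that of Pdgfra, Pdgfrb, Pdgfrl or Pdgfa (x axis, kb, negative upstream); diamonds are the PDGF genes and circles the neighbours, red for called higher, blue for called lower and grey for not called. Of the tested neighbours of Pdgfrb, Slc26a2 lies at 0.47 and Ppargc1b at -0.85.

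Ligands of the related receptors mostly fell. Of 9 listed, 8 were tested, 5 fell, 2 rose and 1 was not called (87.5% called, beside 24.7% of all genes tested), with a median log2 fold change of -0.34, against -0.0011 over all genes tested, in the authors' deposited table. Csf1 (-1.22 ± 0.067) and Il34 (-1.42 ± 0.083), which encode both ligands of the Csf1r product, and Kitl (-0.50 ± 0.062), which encodes stem cell factor, fell in the authors' deposited table. Csf1 stood at 44.0 CPM with doxycycline and 102 CPM without, and Il34 at 8.30 CPM with doxycycline and 22.2 CPM without.

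Vegfd (-0.83 ± 0.14), a ligand of lymphatic vessel receptors whose family is related to the PDGFs, fell, and Vegfa (-0.19 ± 0.067) fell slightly, in the authors' deposited table. Pgf (1.41 ± 0.28) and Flt3l (0.91 ± 0.27) rose at low levels, with means of 26.6 and 19.2 counts. Neither is called at a floor of 50 counts, which both miss, or with the widened errors, which leave 3 of the 5 falls. Among 6 related receptors only Flt1, a receptor of vascular endothelial growth factors, was tested, and it was not called (0.071 ± 0.069, at 45.8 CPM with doxycycline and 43.6 CPM without) in the authors' deposited table. The other 5 had means under 2 counts.

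Genes for the processing, retention and binding of ligands had 4 falls and 1 rise among 9 tested of 14 listed (55.6% called, beside 24.7% of all genes tested), with a median log2 fold change of -0.073 in the authors' deposited table. The neuropilin genes Nrp1 (-0.48 ± 0.066) and Nrp2 (-0.58 ± 0.062), coreceptors of the related growth factors, and Lrp1 (-0.34 ± 0.060), whose product binds PDGF receptors, fell in the authors' deposited table. Plat, the tissue plasminogen activator gene, was not called (0.18 ± 0.076), nor was the proprotein convertase gene Furin (0.079 ± 0.064), while Plau, the urokinase gene, fell (-0.50 ± 0.12) in the authors' deposited table. With the widened errors 1 gene of the list was called higher and 2 lower.

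Receptor-proximal signalling genes stayed near the background. Of 39 listed, 38 were tested, 7 rose, 3 fell and 28 were not called (26.3% called, beside 24.7% of all genes tested), with a median log2 fold change of 0.035 in the authors' deposited table. The Src family kinase gene Fyn (0.53 ± 0.068), Stat5a (0.59 ± 0.083), Stat3 (0.40 ± 0.067), Shc1, Shb, Stat5b and Pik3r3 rose. Pik3r1 (-0.45 ± 0.069), which encodes the regulatory subunit of phosphatidylinositol 3-kinase that docks on the receptors, Vav2 and Pik3cb fell in the authors' deposited table. Plcg1, Ptpn11, Grb2, the Ras, Raf, Map2k and Mapk genes and the Akt genes of the list were not called. With the widened errors 2 were called higher and 1 lower.

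Genes whose products attenuate receptor signals had 3 rises and 5 falls among 17 tested of 18 (47.1% called, beside 24.7% of all genes tested), with a median log2 fold change of -0.082 in the authors' deposited table. Socs1 (-1.42 ± 0.098), a suppressor of cytokine signalling, Rasa1 (-0.34 ± 0.070), the Ras GTPase activating protein gene, and Ptprj (-0.30 ± 0.073), a receptor phosphatase gene, fell in the authors' deposited table. Ptpn12 (0.49 ± 0.067), another phosphatase gene, rose. The ubiquitin ligase genes Cbl (-0.010 ± 0.070) and Cblb (-0.082 ± 0.079), which act on activated receptors, were not called in the authors' deposited table. With the widened errors 1 gene of the list was called higher and 1 lower.

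Genes known to be induced by PDGF and other growth factors in fibroblasts moved in both directions. All 24 listed were tested, 7 rose, 11 fell and 6 were not called (75.0% called, beside 24.7% of all genes tested), with a median log2 fold change of -0.023 in the authors' deposited table. Called changes of at least 2-fold numbered 9 of the 24, beside 1.68% of all genes tested. Egr1 (1.37 ± 0.071) and Egr2 (2.21 ± 0.12), zinc finger factors of the immediate early response, rose. Myc (-1.30 ± 0.065) and Ptgs2 (-1.20 ± 0.062), the cyclooxygenase 2 gene, fell. Fos was not called (0.054 ± 0.15, a mean of 76.4 counts) in the authors' deposited table. With the widened errors 4 genes of the list were called higher and 8 lower, beside 190 higher and 386 lower among all 12355 genes tested. The lists were compiled with earlier results of these data known, so their counts are no independent evidence of a direction, and no set test was run.

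**Figure D5:**
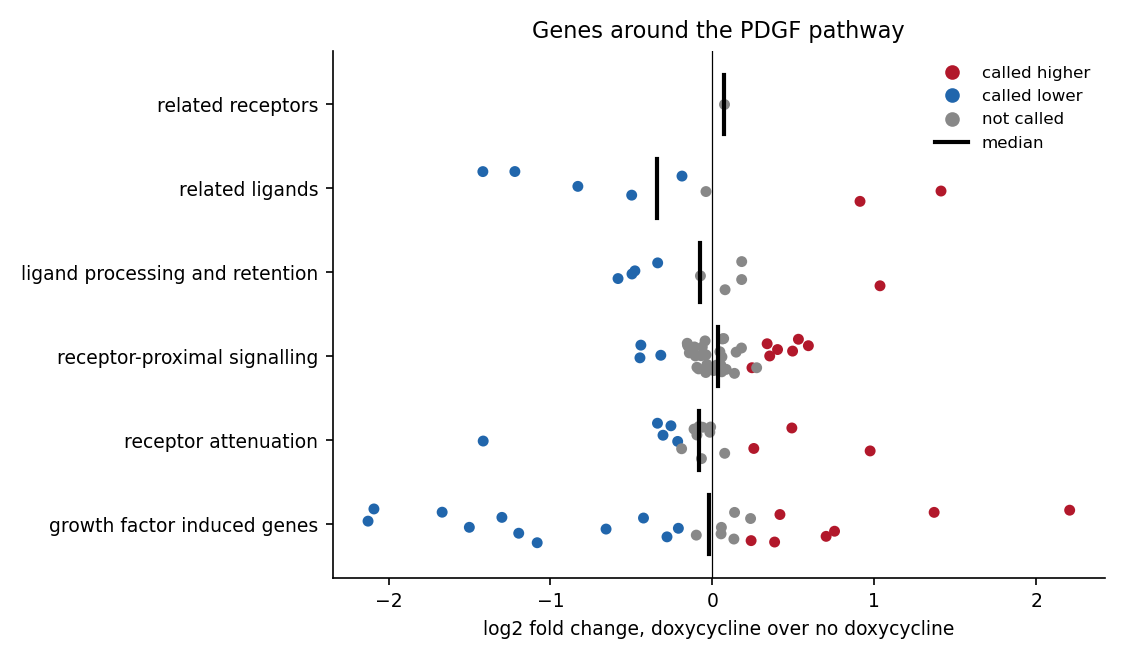
Log2 fold change of doxycycline over no doxycycline (x axis) of each tested gene in 6 lists around the PDGF pathway (rows), red for called higher, blue for called lower and grey for not called, with the list median as a black bar; vertical scatter is only for legibility. Most receptor-proximal genes lie near 0 (median 0.035), related ligands lie mostly below it (median -0.34), and growth factor induced genes spread from -2.13 to 2.21.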

How the data were processed

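Directional RNA-seq libraries of nuclear RNA, 2 per group, were made per the labels' protocols. Tools and build named by the submitters' processing notes, without roles, are mm10, limma, edgeR, HOMER 4.10, Picard, SAMtools 1.10 and STAR 2.7.1a. The authors' deposited table holds, per the file headers, limma's log2 fold change and mean log2 CPM, its t score and log-odds score (the second not used), p-values and adjusted p-values, and, as other columns, each transcript's coordinates and exon length.

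Standard errors were computed as log2 fold change over t, with normal 95% intervals. They follow level and fold almost completely (99.2% of their variance on the log scale, 19541 rows), so spread was shared across transcripts. Group means split the log2 fold change evenly around the mean log2 CPM. Rows without reads imply about 45700000 effective counts per library (geometric mean); depth per library is unknown. The transcript with the highest mean stood for its gene. Genes with a geometric mean of at least 10 counts (0.230 CPM) were tested, and called at the authors' adjusted p under 0.05. A gene silent in one group can miss that floor.

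The planned edgeR fit needed counts per library, so the authors' test took its place. The calling step was tested on simulated data, whose noise was drawn with the same standard errors that the calls used. That checks the code and cannot show whether those errors are large enough. Members and lists were chosen with earlier results of these data known. Named genes are Cdx2, the members, up to 4 per list by smallest p, leading markers and called neighbours; others were named after their values were seen. A few listed genes are counted in their lists but not reported here by name. Python 3.11.15, pandas 2.3.3 and SciPy 1.17.1 were used. Promoter windows come from RefSeq (GRCm38.p6), which gave windows for 4 of the 7 members.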

Additional observations from a re-analysis of the deposited data

How the results depend on the processing

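The calls and directions of Pdgfra, Pdgfrb, Pdgfrl and Pdgfc held under all 6 alternatives run: the longest transcript per gene, a floor of 50 counts, no floor, adjustment over the genes tested only, folds minus the median of all genes tested, and errors multiplied by 2.08 (the robust spread of t over the genes tested, which also contains true changes). With these larger errors, Pdgfa was no longer called (0.29 on the log2 scale, adjusted p 0.355), which left 1 member called higher. They also left 0 higher and 3 lower among related ligands, 2 lower among processing genes, 2 higher and 1 lower among receptor-proximal genes, 1 higher and 1 lower among attenuating genes, 4 higher among growth factor induced genes, and 190 higher and 386 lower among all genes. At the floor of 50 counts, 0 related ligands were called higher. The other 113 values computed kept their call or stayed within 1.5 times the reported count. No paired analysis was possible because the table holds no values per library; for the same reason leaving out single replicates and DESeq2 were not run. Depth sets what can be said of Pdgfb and Pdgfd, for which no change could be measured.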
